A study of Mus musculus with 15 samples.

Results

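The 6 genes described here encode the heavy chains of sarcomeric myosin that skeletal muscle uses: Myh3 (embryonic), Myh8 (neonatal), Myh1 (fast, type IIX), Myh2 (fast, type IIA), Myh4 (fast, type IIB) and Myh7 (slow, type I). They were chosen by name, with earlier results of these data known, and are 6 of the 23352 genes in the deposited table. All 6 passed the filter on low values that left 11945 genes to test. Each gene had a level above 10 FPKM (fragments counted per length of transcript and size of library) in all 15 libraries.

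Myosin heavy chain is the motor of the thick filament, and its isoform sets how fast a muscle fibre shortens. Muscle that is forming makes the embryonic and neonatal isoforms first, and mature fibres replace them with a fast or the slow isoform. All but Myh7 stand in a row in the genome, in the order Myh3, Myh2, Myh1, Myh4 and Myh8, and Myh7 lies on another chromosome beside Myh6, the main heavy chain of the adult mouse heart.

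The study asked how MLX, a transcription factor that binds DNA in pairs with the MondoA and MXD proteins, affects RNA levels in muscle cells. C2C12 is a mouse skeletal muscle cell line whose myoblasts can fuse into myotubes. All 5 groups were C2C12 cells transduced with a vector, lentiviral per the protocol, 3 libraries each: MLX-WT (the wild-type protein), MLX-DN (a dominant negative version of it), MLX shRNA (a hairpin that targets Mlx), a GFP control (vector with GFP alone) and a non-targeting shRNA. The GFP control is the vector control of MLX-WT and MLX-DN, and the non-targeting shRNA that of MLX shRNA. Neither a culture time nor separate cultures for the libraries are named in the labels, so the p-values rest on the spread between these libraries alone, which may be technical. The cells are labelled myoblasts.

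Mlx itself followed the labels: its level was 17.1 ± 0.516 FPKM (SD, n = 3) in the GFP control, 644 ± 11.6 with MLX-WT, 394 ± 8.76 with MLX-DN, 17.1 ± 0.778 with the non-targeting shRNA and 3.21 ± 0.645 with MLX shRNA. Depth, estimated from the steps between low values, ran from 37.0 to 82.8 M reads a library, and within a group r between libraries lay between 0.998 and 0.999. At these depths a member's value in a library stood for about 3188 (Myh7) to 466340 (Myh3) reads. Against the label myoblasts, genes of early differentiated muscle (8 listed, among them Myog, Ckm and Acta1) summed to between 5917 and 8309 FPKM, highest in the GFP control (8159 to 8309) and lowest with the non-targeting shRNA (5917 to 6060). Between these controls 6 of the 8 were called lower with the non-targeting shRNA and 1 higher. Of all tested genes, 37.1% were called lower and 37% higher there. Myog went against the sum, at 445 FPKM in the GFP control and 657 with the non-targeting shRNA. In bulk RNA, fewer differentiated cells and less RNA per cell cannot be told apart. Endothelial and adipocyte markers summed to at most 0.239 and 0.519 FPKM, immune markers to at most 5.95 (MLX-DN) and fibroblast markers to between 40.1 (MLX-DN) and 95.6 (non-targeting shRNA). Cardiac markers summed to between 9.65 and 19.9 FPKM, with Myl7 under 0.1, and neural ones to between 7.63 and 23.2. The cardiac list includes Myh6, at 11.8 FPKM in the GFP control, whose value carries a limit given below for windows in common with Myh7. The smooth muscle list summed to 335 to 346 FPKM in the GFP control and 64.5 to 68.3 with MLX shRNA, with Myh11 and Myocd, its defining genes, under 0.1 in every group. The part of these differences in the myosin values was not tested.

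The sequences below are shown because Myh1, Myh2, Myh4 and Myh8 are near copies of each other, although their levels differed between groups. They are the 250 bases before the RefSeq start of each gene (GRCm38.p6, 5′ to 3′). Capitals mark the runs of at least 9 bases found in all 4: TCAAATTAT and TTCTAATTATATCC.
Myh2, chr11:67170777-67171026, plus strand: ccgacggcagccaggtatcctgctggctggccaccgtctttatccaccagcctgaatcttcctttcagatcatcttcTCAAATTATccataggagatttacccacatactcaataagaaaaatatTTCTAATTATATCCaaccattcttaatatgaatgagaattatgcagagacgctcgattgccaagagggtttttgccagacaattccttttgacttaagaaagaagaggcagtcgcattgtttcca
Myh1, chr11:67199852-67200101, plus strand: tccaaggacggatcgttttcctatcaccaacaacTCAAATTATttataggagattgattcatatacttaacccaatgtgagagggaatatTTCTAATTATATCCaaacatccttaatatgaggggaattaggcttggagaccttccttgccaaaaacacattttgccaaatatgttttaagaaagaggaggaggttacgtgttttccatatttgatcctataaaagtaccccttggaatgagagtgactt
Myh4, chr11:67237562-67237811, plus strand: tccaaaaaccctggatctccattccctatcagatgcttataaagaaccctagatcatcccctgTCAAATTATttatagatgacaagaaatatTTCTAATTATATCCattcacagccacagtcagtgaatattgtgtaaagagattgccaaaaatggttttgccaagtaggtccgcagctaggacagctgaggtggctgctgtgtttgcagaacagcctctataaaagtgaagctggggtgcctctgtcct
Myh8, chr11:67276874-67277123, plus strand: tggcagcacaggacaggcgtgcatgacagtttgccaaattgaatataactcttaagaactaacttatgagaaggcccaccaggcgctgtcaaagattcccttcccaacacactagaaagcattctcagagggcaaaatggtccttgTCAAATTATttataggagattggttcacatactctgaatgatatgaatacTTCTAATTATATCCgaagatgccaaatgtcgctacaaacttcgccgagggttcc
The run of 14 bases was found, on the strand shown, in 4 of 32851 promoter entries (0.0122%), those of these 4 genes. It began at position -125 in Myh2, -160 in Myh1, -158 in Myh4 and -54 in Myh8, counted back from the start. The run of 9 bases was in 57 entries (0.174%). It went on as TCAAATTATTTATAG in Myh1, Myh4 and Myh8, and in no other entry. Neither capital run was found upstream of Myh3 or Myh7. Searched on both strands, the MEF2 motif matched at -211 in Myh1, -182 in Myh4 and -99 in Myh8, inside the longer run and overlapping a TATAAA match there. It had no match in the windows of Myh2, Myh3 and Myh7, and 2.92% of all promoter entries hold one. The E-box CANNTG, the site of the MYOD family and, as CACGTG, of MLX dimers, occurred in 66.2% of all promoters. It was found 1 time in Myh3, 2 times in Myh4, 1 time in Myh8, 1 or 2 times in Myh7, which has 2 promoter entries, and not in the windows of Myh1 and Myh2. None of these matches was CACGTG. The CArG box matched 1 time, at -104 in Myh4, and 1.47% of all entries hold it. TATAAA, held by 12.4% of all entries, lay close to the start in Myh3 (-29) and likewise in Myh1 and Myh4, and had no match in the window of Myh2. A match here describes the letters and no binding was measured.

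The coding sequences of Myh1 and Myh2 were 90.9% identical and those of Myh1 and Myh4 90.1%. Myh3 was 76.7% to 81.0% identical to the others. The 60 coding bases from 1321 to 1380 were the same in Myh1, Myh2, Myh4 and Myh8: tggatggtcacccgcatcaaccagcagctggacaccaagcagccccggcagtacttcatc. The stretch that differed most, coding bases 1836 to 1895, is printed to show what tells the 4 transcripts apart, with capitals at the 30 positions where they are not all the same.
Myh1: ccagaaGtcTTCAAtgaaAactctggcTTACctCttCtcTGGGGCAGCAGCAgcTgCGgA
Myh2: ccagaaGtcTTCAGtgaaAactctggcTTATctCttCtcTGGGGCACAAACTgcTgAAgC
Myh4: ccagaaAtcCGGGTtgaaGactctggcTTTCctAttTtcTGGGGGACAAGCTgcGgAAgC
Myh8: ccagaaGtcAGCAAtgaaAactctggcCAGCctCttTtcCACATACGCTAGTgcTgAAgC
The read length and the treatment of reads that match several genes are not given in the sources used here, so values of near copies are uncertain. Of the windows of 100 bases along the Myh2 transcript, 7.59% also occurred in Myh1, and of the windows of 50 bases 19.7%. The level of Myh2 was between 7.20% and 8.15% of that of Myh1 in all 15 libraries. Its level thus stayed near a fixed fraction of Myh1, close to the share of windows of 100 bases, and whether reads of Myh1 make up its value was not tested. Myh6 stood at 16.3% to 18.3% of Myh7 in the 15 libraries, between the shares of its windows that occurred in Myh7, 11.4% at 100 bases and 22.6% at 50 bases. For Myh4, 2.25% of windows of 100 bases and 10.6% of windows of 50 bases occurred in Myh1, while its level ran from 5.76% to 71.7% of Myh1. The mean ratio of Myh4 to Myh1 was 0.0584 with MLX-DN, 0.0827 with the non-targeting shRNA and 0.0586 with MLX shRNA, between those shares. It was higher in the GFP control (0.707) and with MLX-WT (0.270). Whether reads of Myh1 make up the low values of Myh4 was not tested. Myh8, with 2.63% and 9.56% of its windows in Myh1, ran from 11.7% to 36.9% of it. The mean ratio of Myh8 to Myh1 was 0.123 with the non-targeting shRNA and 0.118 with MLX shRNA, a little above those shares. It was 0.145 with MLX-DN, 0.289 with MLX-WT and 0.366 in the GFP control. Whether reads of Myh1 make up part of the low values of Myh8 was not tested. Myh3 had 1.15% of its windows of 100 bases in any of the other sarcomeric heavy chain genes searched.

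**Figure D1:**
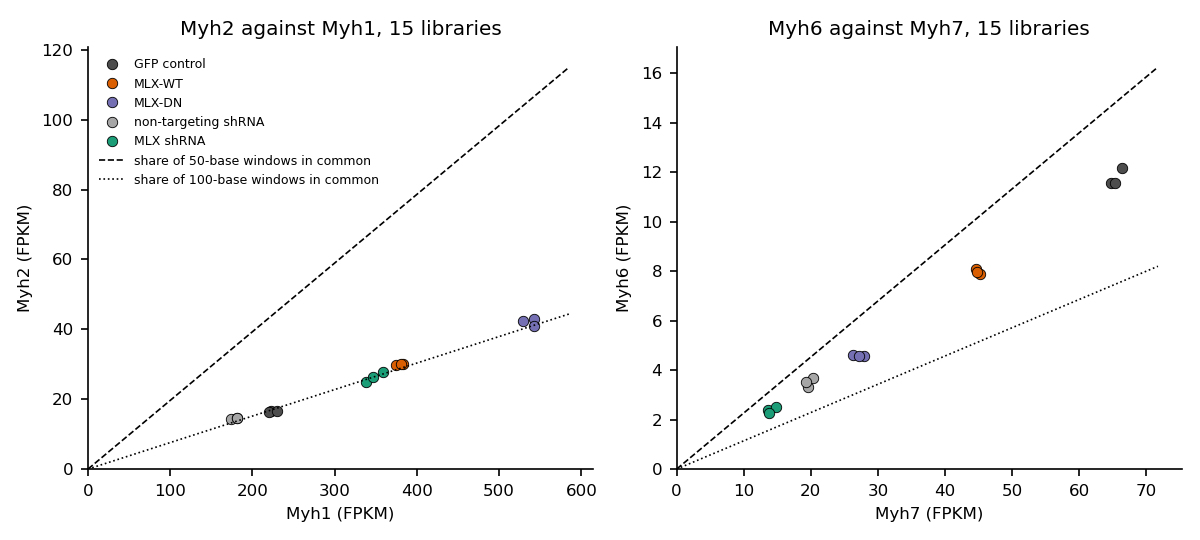
Level of Myh2 against Myh1 (left) and of Myh6 against Myh7 (right), in FPKM, with 1 point for each of 15 libraries coloured by group. Lines show the level that the share of transcript windows in common would give at 50 bases (dashed) and 100 bases (dotted). Myh2 stays at 7.20% to 8.15% of Myh1 and Myh6 at 16.3% to 18.3% of Myh7.

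Myh3, the embryonic isoform, was the most abundant of the 6 in 4 groups, and stood level with Myh1 with MLX-DN. The GFP control libraries held 934, 932 and 956 FPKM, MLX-WT 942, 926 and 935, and MLX-DN 540.1, 533 and 539. The non-targeting shRNA libraries held 478, 506 and 490.1 FPKM and MLX shRNA 955, 1022 and 985. The groups thus fell into a high set (GFP control, MLX-WT, MLX shRNA), whose ranges of FPKM overlapped in part, and a low set (MLX-DN, non-targeting shRNA) that did not overlap it. With MLX-DN, Myh3 fell by 0.80 on the log2 scale against the GFP control (SE 0.026, adjusted p = 1.96e-13; limma on log2(FPKM + 2), Benjamini-Hochberg over all genes tested, as for each adjusted p here), 1.75-fold in FPKM, though by 0.52 after quantile normalization. With MLX shRNA, Myh3 was 2.01-fold higher than with the non-targeting shRNA (log2 difference 1.0, SE 0.026, adjusted p = 2.73e-14). Over MLX-WT it was higher by 0.08 (SE 0.026, adjusted p = 0.0129), where 73.7% of tested genes were called (40.8% higher, 32.9% lower, 2.65% past 2-fold). Between MLX-WT and the GFP control the log2 difference of Myh3 was -0.01 (SE 0.026, adjusted p = 0.772), and it turned to 0.06 (adjusted p = 0.0432) with libraries centred on their medians and to 0.11 (adjusted p = 0.00129) after quantile normalization.

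Myh8, the neonatal isoform, was highest with MLX-WT and lowest with the non-targeting shRNA. Its libraries held 81.8, 81.4 and 82.9 FPKM in the GFP control, 111, 109 and 109.8 with MLX-WT, and 78.5, 76.6 and 79.0 with MLX-DN. The values were 21.2, 23.0 and 22.0 FPKM with the non-targeting shRNA and 39.8, 42.5 and 40.8 with MLX shRNA. No 2 groups overlapped for Myh8, but the GFP control and MLX-DN were close. The low values of Myh8 in both shRNA groups carry the limit given above for windows in common with Myh1. Myh8 rose 1.34-fold with MLX-WT (log2 difference 0.41, SE 0.028, adjusted p = 3.66e-09) and 1.86-fold with MLX shRNA over the non-targeting shRNA (log2 difference 0.84, SE 0.028, adjusted p = 7.78e-13). With MLX-DN, Myh8 passed the threshold by little, with a log2 difference of -0.07 (SE 0.028, adjusted p = 0.0310). That call for Myh8 was lost without GFP control replicate 1 (adjusted p = 0.0551), without GFP control replicate 3 (0.0885) and without MLX-DN replicate 2 (0.110), and the sign turned, to 0.02, with libraries centred on their medians (adjusted p = 0.513).

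Myh1, the IIX isoform, rose in each of the 3 MLX groups over its own control. The GFP control libraries held 222, 221 and 229.5 FPKM, MLX-WT 383, 375 and 380.4, and MLX-DN 542, 529 and 542. The non-targeting shRNA libraries held 174, 181 and 181 FPKM of Myh1, and MLX shRNA 338, 359 and 347. All 5 groups were separate, in the order MLX-DN, MLX-WT, MLX shRNA, GFP control, non-targeting shRNA. Against the GFP control Myh1 rose 2.40-fold with MLX-DN (log2 difference 1.255, SE 0.025, adjusted p = 8.43e-16) and 1.69-fold with MLX-WT (0.75, SE 0.025, adjusted p = 6.77e-13). With MLX shRNA it rose 1.95-fold over the non-targeting shRNA (0.95, SE 0.025, adjusted p = 3.72e-14). In the GRCm38 annotation 8.11% of the exon bases of Myh1 lie opposite exons of Myhas on the other strand, and the use of strand in counting was not given in the sources used here.

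Myh2, the IIA isoform, was the least abundant of the 6 in the GFP control and with MLX-WT. With the non-targeting shRNA its mean was also the lowest, at 14.5 FPKM beside 14.8 for Myh4, whose libraries overlapped those of Myh2. Myh2 followed Myh1, within the limit given above for the windows they have in common. Its libraries held 16.6, 16.4 and 16.5 FPKM in the GFP control, 30.1, 29.9 and 29.9 with MLX-WT, and 42.9, 42.3 and 40.9 with MLX-DN. The values of Myh2 were 14.2, 14.6 and 14.6 FPKM with the non-targeting shRNA and 25.0, 27.9 and 26.4 with MLX shRNA. The order of groups was that of Myh1, and no 2 groups overlapped. The log2 difference of Myh2 was 0.79 with MLX-WT (SE 0.031, adjusted p = 4.44e-12), 1.248 with MLX-DN (SE 0.031, adjusted p = 9.13e-15) and 0.79 with MLX shRNA (SE 0.031, adjusted p = 5.17e-12), each against its own control.

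Myh4, the IIB isoform, varied most, 10.7-fold between the highest and the lowest group. The GFP control libraries held 159, 155 and 161 FPKM, MLX-WT 103, 101 and 104, and MLX-DN 31.2, 31.4 and 31.7. The non-targeting shRNA libraries held 13.9, 15.4 and 15.1 FPKM of Myh4 and MLX shRNA 19.7, 20.99 and 20.4. Both shRNA groups were thus below all libraries of the other 3 groups, and MLX shRNA was above its own control without overlap. The low values of Myh4 with MLX-DN and in both shRNA groups carry the limit given above for windows in common with Myh1. Against the GFP control, Myh4 was 5.04-fold lower with MLX-DN (log2 difference -2.26, SE 0.031, adjusted p = 1.37e-17), and 0.151% of tested genes differed by as much or more. It was 1.54-fold lower with MLX-WT (-0.62, SE 0.031, adjusted p = 7.35e-11), and 1.38-fold higher with MLX shRNA than with the non-targeting shRNA (0.42, SE 0.031, adjusted p = 9.24e-09). Between the controls Myh4 differed by -3.26 (SE 0.031, adjusted p = 4.43e-19), a difference that 0.0251% of tested genes reached.

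Myh7, the slow isoform, was the only member below its own control in all 3 MLX groups. Its libraries held 64.7, 65.3 and 66.4 FPKM in the GFP control, 45.2, 44.6 and 44.8 with MLX-WT, and 28.0, 26.2 and 27.2 with MLX-DN. The non-targeting shRNA libraries held 19.6, 20.3 and 19.3 FPKM of Myh7, and MLX shRNA 13.7, 14.7 and 13.8. The 5 groups were separate and ran from the GFP control at the top to MLX shRNA at the bottom. Myh7 fell by 0.53 on the log2 scale with MLX-WT (SE 0.030, adjusted p = 3.52e-10), by 1.21 with MLX-DN (SE 0.030, adjusted p = 8.13e-15) and by 0.44 with MLX shRNA (SE 0.030, adjusted p = 3.46e-09). Genes on the opposite strand (Gm29015, Gm31251 and Mhrt) cover 13.3% of its exon bases in GRCm38, and 11.2% of its windows of 100 bases occur in Myh6.

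**Figure D2:**
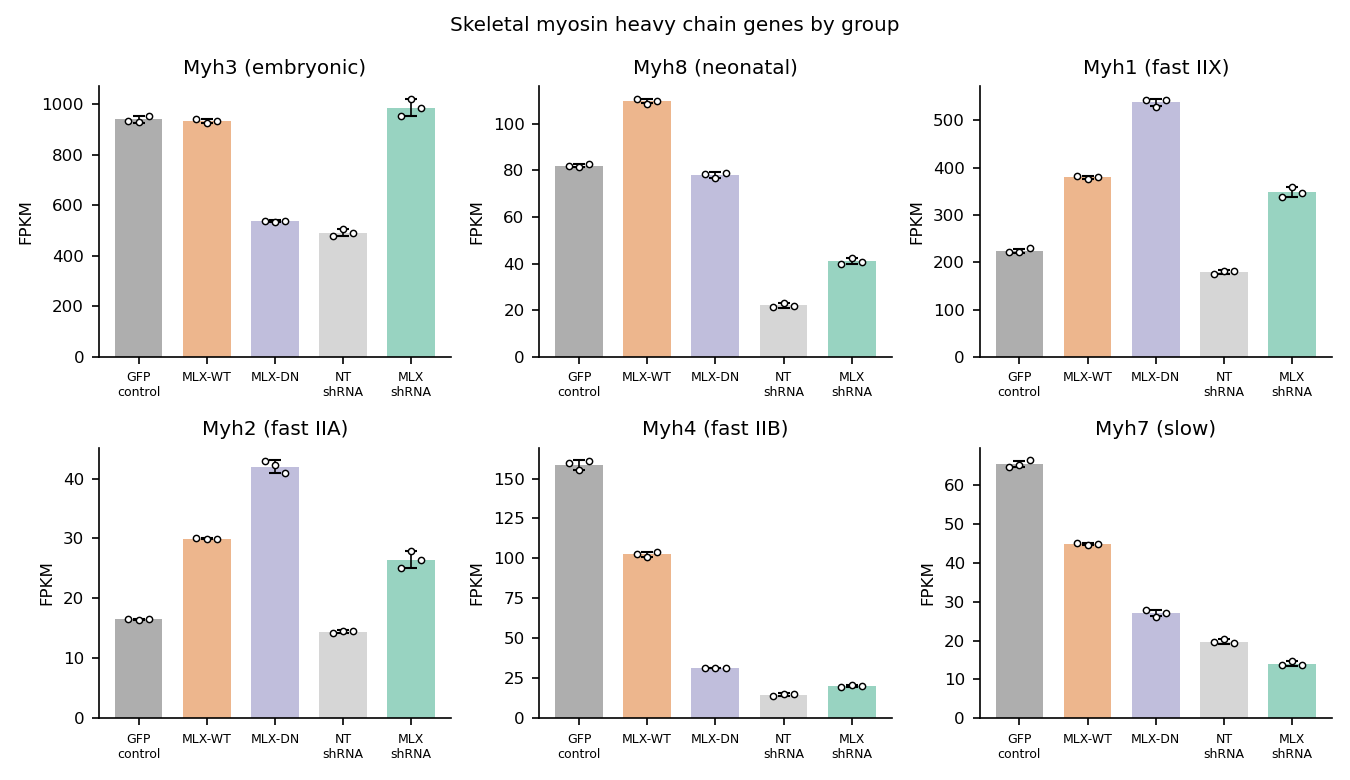
Level of each gene in FPKM (linear axes from 0, each panel with its own scale) in the 5 groups; bars are means of 3 libraries, error bars the SD and circles the libraries (NT, non-targeting). Myh1 and Myh2 are highest with MLX-DN, Myh4 and Myh7 in the GFP control, and Myh3 splits the groups into a set of 926 FPKM or above and a set of 478 to 540.1 FPKM.

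Because RNA of the 6 genes is counted per length, the levels can be added and each isoform given as a share. The sum was 1487 ± 21.7 FPKM (SD, n = 3) in the GFP control, 1601 ± 14.5 with MLX-WT, 1254 ± 13.1 with MLX-DN, 741 ± 19.9 with the non-targeting shRNA and 1437 ± 47.7 with MLX shRNA. The total was therefore lowest in a control, and MLX shRNA stood near the GFP control. Shares within a library do not depend on scaling between libraries, and they are a description with no test.

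In the GFP control Myh3 made up 63.2% ± 0.0956 of the sum (SD, n = 3), Myh1 15.1% ± 0.0985, Myh4 10.7% ± 0.113, Myh8 5.52% ± 0.0287, Myh7 4.40% ± 0.0351 and Myh2 1.11% ± 0.0161. With MLX-DN the embryonic share was 42.9% ± 0.156 and equal to that of Myh1, 42.9% ± 0.163, so that the ratio of Myh1 to Myh3 was 1.0 ± 0.00730 against 0.238 ± 0.00173 in the GFP control. With MLX-WT the ratio was 0.406 ± 0.000822. Between MLX shRNA (0.352 ± 0.00141) and the non-targeting shRNA (0.364 ± 0.00543) it differed little, although the total of the 6 differed. The share of Myh4, given above for the GFP control, was 6.41% ± 0.0754 with MLX-WT, 2.51% ± 0.0299 with MLX-DN, and 1.99% ± 0.0553 and 1.42% ± 0.00743 in the non-targeting shRNA and MLX shRNA groups. The slow isoform Myh7 was 2.66% ± 0.0614 of the sum with the non-targeting shRNA and 0.978% ± 0.0155 with MLX shRNA.

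**Figure D3:**
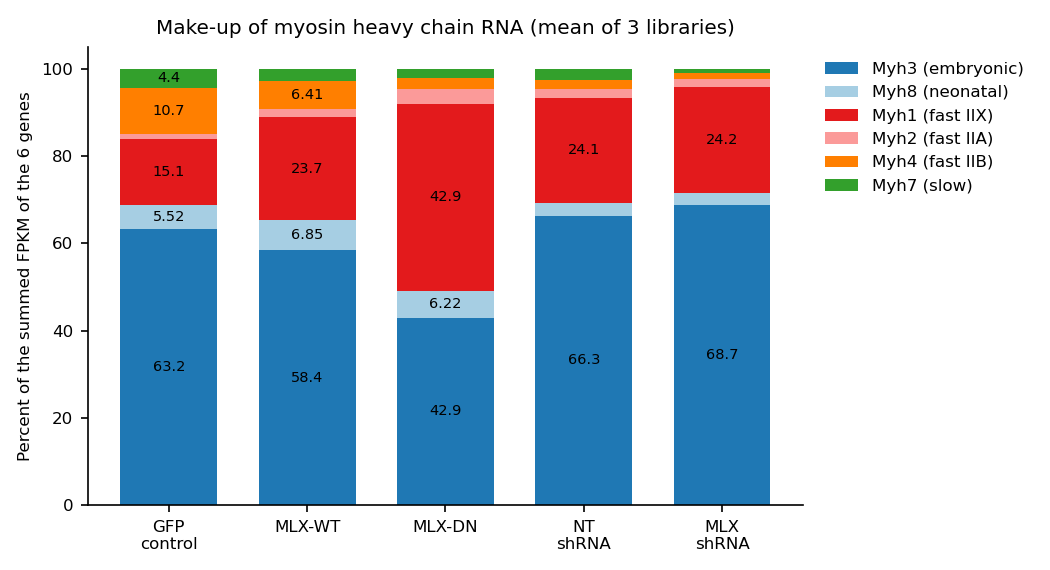
Share of each isoform in the summed FPKM of the 6 genes, in percent, as the mean of 3 libraries per group (NT, non-targeting); shares above 4% are printed. Myh1 takes 15.1% in the GFP control and 42.9% with MLX-DN, where that of Myh3 is also 42.9%.

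Counted over the 6 genes, MLX-WT against the GFP control gave 3 higher (Myh1, Myh2, Myh8) and 2 lower (Myh4, Myh7), and Myh3 was not called. Of all genes tested, 70.3% were called in that comparison (27.6% higher, 42.7% lower), so a call alone sets no member apart. The median log2 difference was 0.20 over the members and -0.05 over all tested genes. No member differed by 2-fold or more, as 1.67% of tested genes did; in these counts 2-fold means a log2 difference of at least 1 on the log2(FPKM + 2) scale, which is smaller than the fold in FPKM. The libraries did not overlap for 5 members, and for 76.4% of tested genes.

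MLX-DN against the GFP control gave 2 higher (Myh1, Myh2) and 4 lower (Myh3, Myh4, Myh7, Myh8), where 81.4% of tested genes were called (32.6% higher, 48.8% lower). The member median was -0.44 and that of all tested genes -0.08. At 2-fold or more 4 members were called (Myh1, Myh2, Myh4, Myh7), beside 3.87% of tested genes. No member overlapped, as for 83.6% of tested genes. MLX-DN against MLX-WT split the members in the same 2 and 4 genes, with 72.1% of tested genes called (33.2% higher, 38.9% lower) and 1 member, Myh4, past 2-fold (-1.65, SE 0.031, adjusted p = 8.00e-16), as 1.31% of tested genes were. No member overlapped there, as for 76.6% of tested genes. These comparisons share libraries, so their likeness is no result.

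MLX shRNA against the non-targeting shRNA gave 5 higher and 1 lower, Myh7, where 70.1% of tested genes were called (30.8% higher, 39.3% lower). The member median was 0.81 and that of all tested genes -0.02. Myh3 alone reached 2-fold, as 1.51% of tested genes did, and no member overlapped, as for 69.4% of tested genes. The differences of Myh1, Myh3 and Myh8 were of a size that 1.68%, 1.47% and 2.49% of tested genes reached.

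The controls differed from each other in all 6 members, each lower with the non-targeting shRNA than with the GFP vector, where 74.1% of tested genes were called (37% higher, 37.1% lower), and 77.2% did not overlap. At 2-fold or more 3 members were called (Myh4, Myh7, Myh8), beside 2.51% of tested genes. The log2 difference was -1.81 for Myh8 (SE 0.028, adjusted p = 6.62e-17), -1.63 for Myh7 (SE 0.030, adjusted p = 3.83e-16) and -0.93 for Myh3 (SE 0.026, adjusted p = 4.61e-14). The vector type, and any culture or run that goes with it, cannot be told apart from this difference.

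The choice of control therefore changed several directions. Against the non-targeting shRNA all 6 members were higher with MLX-WT (69.9% of tested genes called, 25.7% higher and 44.3% lower). So were all 6 with MLX-DN (69.7% called, 21% higher and 48.7% lower). On the log2(FPKM + 2) scale 4 members were past 2-fold with MLX-WT and 3 with MLX-DN, beside 1.38% and 0.444% of tested genes. In FPKM itself, Myh2 with MLX-WT (2.07-fold) and Myh4 with MLX-DN also passed 2-fold. No member overlapped in either, as for 73.8% and 73% of tested genes. Myh4, lower with MLX-DN than in the GFP control, was 2.12-fold higher in FPKM than with the non-targeting shRNA (log2 difference 0.99, SE 0.031, adjusted p = 8.82e-13). Myh7 with MLX-DN likewise stood at 0.42 above it (SE 0.030, adjusted p = 9.73e-09). MLX shRNA against the GFP control gave 3 higher and 3 lower (80% of tested genes called, 37.3% higher and 42.8% lower), with 2 members past 2-fold on the log2(FPKM + 2) scale (5.53% of tested genes) and 5 without overlap (79.8%). Myh8 lay at the limit, at -0.97 on that scale (SE 0.028, adjusted p = 3.93e-14) and 2.0-fold lower in FPKM. There Myh4 stood at -2.84 (SE 0.031, adjusted p = 4.51e-19) and Myh3 at 0.07 (SE 0.026, adjusted p = 0.0222). That call for Myh3, whose groups overlapped, was lost without GFP control replicate 1 (adjusted p = 0.0626), without GFP control replicate 2 (0.0704), without MLX shRNA replicate 2 (0.111) and with those groups fitted alone (0.0690), and the value was 0.12 with libraries centred on their medians and 0.37 after quantile normalization. Myh1 and Myh2 were higher in all 3 MLX groups than in either control. MLX shRNA against MLX-DN gave 1 member higher, Myh3 (0.87, SE 0.026, adjusted p = 1.81e-13), and 5 lower, where 71.2% of tested genes were called (44.1% higher, 27.1% lower, 1.39% past 2-fold). No member of MLX shRNA overlapped MLX-DN or MLX-WT, as for 71.8% and 73.9% of tested genes.

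**Figure D4:**
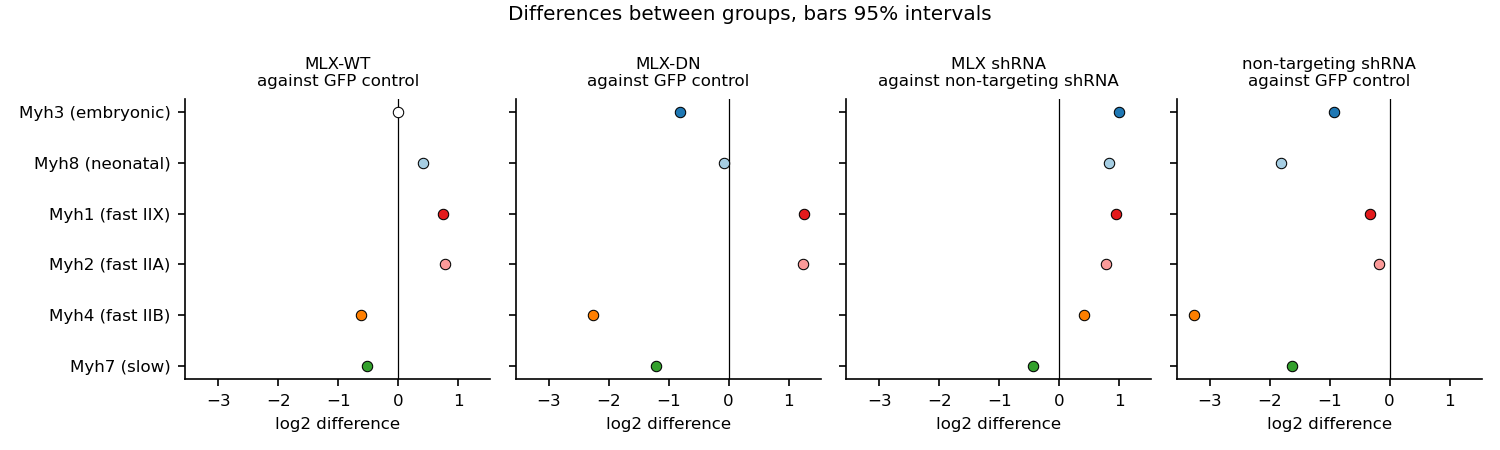
Log2 difference of each gene, on the log2(FPKM + 2) scale, in 4 comparisons (first group minus second); points are limma estimates, bars 95% intervals from the SE (narrower than the points, which hide them) and the open point is not past the threshold. Myh4 spans -3.26 (controls) to 0.42 (MLX shRNA), and all 6 points lie below 0 between the controls.

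The effects of MLX-DN and MLX shRNA, each against its own control, share no library and were compared directly. They differed in all 6 members, where 74.8% of tested genes did (32% higher, 42.8% lower). At 2-fold or more 2 did, beside 4.46% of tested genes. The difference of effects was -2.68 for Myh4 (SE 0.044, adjusted p = 2.50e-16) and -1.81 for Myh3 (SE 0.037, adjusted p = 2.63e-15), and 0.159% and 0.720% of tested genes differed by as much. For Myh1 it was 0.30 (SE 0.036, adjusted p = 1.67e-06), a size that 44.4% of tested genes reached. Between the effects of MLX-WT and MLX shRNA, 4 members differed, all lower (65.4% of tested genes called, 29.5% higher and 35.9% lower), 2 of them by 2-fold or more (3.13% of tested genes), with Myh3 at -1.01 (SE 0.037, adjusted p = 2.42e-12) and Myh4 at -1.03 (SE 0.044, adjusted p = 1.34e-11). Those not called were Myh2 (0.00, SE 0.044, adjusted p = 0.995) and Myh7 (-0.09, SE 0.042, adjusted p = 0.0805), and Myh7 passed the threshold without MLX shRNA replicate 1 (-0.11, adjusted p = 0.0442), without non-targeting shRNA replicate 2 (-0.11, adjusted p = 0.0430) and after quantile normalization (-0.17, adjusted p = 0.00337).

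Other genes of the sarcomere were read from lists. Of all tested genes, 27.6% were called higher and 42.7% lower with MLX-WT against its own control. The shares were 32.6% and 48.8% with MLX-DN, and 30.8% and 39.3% with MLX shRNA. Between the controls they were 37% and 37.1%. These shares stand beside every list count below. Of 12 fast fibre genes, 7 were higher and 4 lower with MLX-WT, 3 higher and 7 lower with MLX-DN, and 8 higher and 4 lower with MLX shRNA, each against its own control. The median log2 differences were 0.16, -0.17 and 0.24, beside -0.05, -0.08 and -0.02 over all tested genes. Between the controls 10 of these 12 were lower with the non-targeting shRNA and none higher, with a median log2 difference of -0.70 beside -0.00 over all tested genes. In that comparison the slow fibre list had 2 higher and 8 lower (median -0.37) and the myosin light chains 3 higher and 7 lower (-0.49). The thick filament list had 6 higher and 8 lower (-0.04), the other heavy chains 2 higher and 4 lower (-0.27) and the regulators 9 higher and 17 lower (-0.12). The lists overlap, so their counts are not independent. The light chain list shares Mylpf and Myl1 with the fast list and Myl2, Myl3 and Myl6b with the slow list. The thick filament list shares Mybpc2 with the fast list and Mybpc1 with the slow list. Mylpf, the fast regulatory light chain, ran from 3846 ± 49.7 FPKM (SD, n = 3) with the non-targeting shRNA to 7373 ± 30.9 with MLX-WT. Myl1, the fast essential light chain, had the same ends, 1081 ± 0.913 and 2297 ± 29.0 FPKM.

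Of 10 slow fibre genes tested, 4 were higher and 5 lower with MLX-WT, 6 higher and 4 lower with MLX-DN, and 6 higher and 2 lower with MLX shRNA. The medians were -0.04, 0.19 and 0.17. Tnnc1, the troponin C of slow and cardiac muscle, held 3046 ± 75.4 FPKM in the GFP control, 4021 ± 53.7 with MLX-WT and 3830 ± 54.6 with MLX-DN, which is not the order of Myh7. Tnni1, slow troponin I, was 1634 ± 38.0 FPKM in the GFP control and 1897 ± 4.93 with MLX-DN. Of 10 myosin light chain genes tested, 5 were higher and 4 lower with MLX-WT, 3 higher and 6 lower with MLX-DN, and 4 higher and 3 lower with MLX shRNA, with medians of 0.13, -0.17 and 0.04.

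Of 16 genes of the thick filament, M-band and myosin folding, 7 were higher and 6 lower with MLX-WT, 10 higher and 5 lower with MLX-DN, and 10 higher and 4 lower with MLX shRNA, with medians of 0.11, 0.30 and 0.19. Mybph, myosin binding protein H, held 832 ± 6.28 FPKM in the GFP control and 1137 ± 16.7 with MLX-DN. Hsp90aa1, a chaperone that takes part in myosin folding, held 236 ± 4.60 FPKM in the GFP control, 279 ± 4.60 with the non-targeting shRNA and 378 ± 9.28 with MLX shRNA. Of 6 other myosin heavy chain genes tested, 2 were higher and 4 lower with MLX-WT, 1 higher and 4 lower with MLX-DN, and 2 higher and 3 lower with MLX shRNA, with medians of -0.19, -0.30 and -0.10. Myh9, a non-muscle heavy chain, ran from 257 ± 6.38 FPKM with MLX-DN to 371 ± 2.95 in the GFP control, and Myh10, another, from 11.6 ± 0.462 with MLX-WT to 19.5 ± 0.669 with the non-targeting shRNA.

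Of 30 tested genes known to regulate muscle myosin genes, 8 were higher and 16 lower with MLX-WT, 7 higher and 18 lower with MLX-DN, and 5 higher and 17 lower with MLX shRNA, with medians of -0.10, -0.24 and -0.16. Over all tested genes the medians were -0.05, -0.08 and -0.02. Of these, 27.6%, 32.6% and 30.8% were called higher and 42.7%, 48.8% and 39.3% lower. Myog (myogenin), the factor that starts terminal differentiation, held 445 ± 3.70 FPKM in the GFP control, and more in the MLX-WT group (601 ± 13.1) and the MLX-DN group (706 ± 15.6). It held 657 ± 9.18 FPKM with the non-targeting shRNA, where the 6 heavy chains were lowest in sum, and 578 ± 15.5 with MLX shRNA. Mef2a, a MEF2 factor, stayed between 84.2 ± 0.762 and 98.96 ± 2.14 FPKM over the groups.

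The genes most like each member in pattern were taken as those with the smallest root-mean-square (RMS) difference between profiles of the 5 group means of log2(FPKM + 2), each centred on its own mean, a description over 5 groups. For Myh1 these were Myh2 (RMS 0.06), Rn45s (0.13) and Csrp3 (0.14), and for Myh2 they were Myh1 (0.06), Csrp3 (0.09) and Tmem176b (0.12). Csrp3, the muscle LIM protein, held 59.2 ± 2.95 FPKM in the GFP control and 125 ± 0.573 with MLX-DN. Rn45s, the ribosomal RNA precursor, was at 125, 1263 and 158 FPKM in the MLX-WT libraries, so its place rests on a group that 1 library, replicate 2, sets apart. For Myh4 they were Tcap (0.12), Dhrs7c (0.42) and Mybpc1 (0.48). Tcap, the titin cap protein of the Z-disc, held 86.5 ± 3.32 FPKM in the GFP control, 52.1 ± 2.10 with MLX-WT, 16.5 ± 0.187 with MLX-DN, 5.66 ± 0.457 with the non-targeting shRNA and 8.32 ± 0.960 with MLX shRNA, the same order of groups as Myh4.

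For Myh7 the nearest were Col8a1 (0.11), Myh6 (0.16) and Tspan32 (0.18), where Myh6 carries the limit given above. Col8a1, a collagen chain, was highest in the GFP control, at 33.1 ± 0.660 FPKM, and lowest with MLX shRNA, at 8.32 ± 0.178, with the groups in the order of Myh7. For Myh3 they were Rundc3a (0.14), Dnajc12 (0.16) and Hrc (0.16). Dnajc12, like Tmem176b, was low, from 0.522 FPKM with the non-targeting shRNA to 1.92 with MLX-WT. Hrc, the histidine-rich calcium-binding protein of the sarcoplasmic reticulum, held 102 ± 1.44 FPKM in the GFP control, 60.01 ± 0.829 with MLX-DN and 97.3 ± 2.93 with MLX shRNA. The nearest to Myh8 were farther off: Myot (0.34), Cav1 (0.40) and Abra (0.41). Among the members themselves the RMS difference was 0.57 between Myh7 and Myh8, 0.61 between Myh4 and Myh7, and 1.38 between Myh2 and Myh4, the largest.

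**Figure D5:**
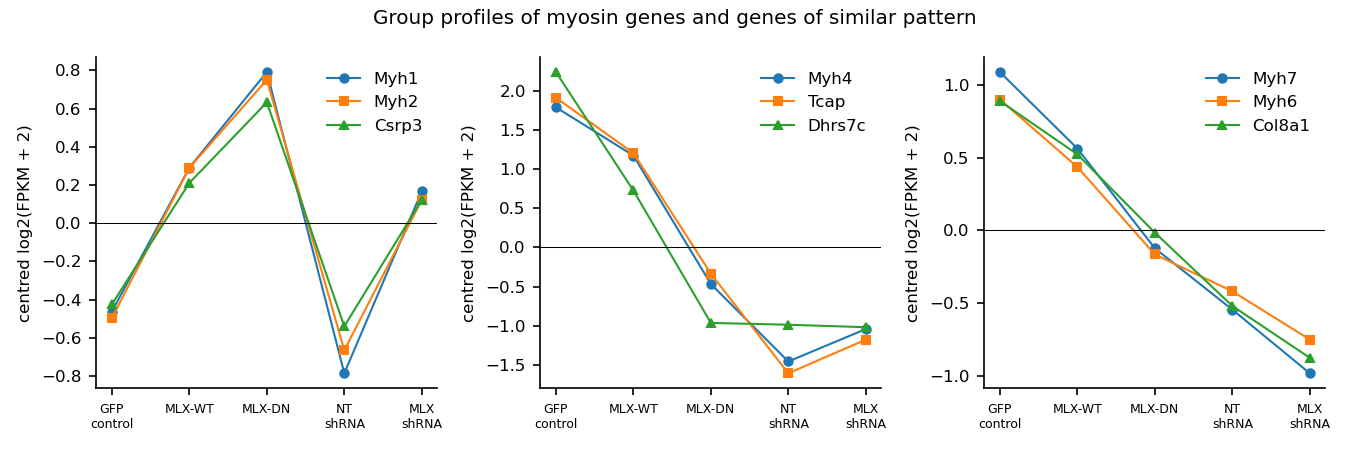
The log2(mean FPKM + 2) of each group, centred on each gene's mean over the 5 groups, for Myh1, Myh4 and Myh7 and genes of similar pattern (NT, non-targeting). Lines join groups for reading only. The RMS differences given here are those of group means of log2(FPKM + 2). Tcap lies within an RMS difference of 0.12 of Myh4, and Myh2 within 0.06 of Myh1.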

How the data were processed

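Messenger RNA of 15 C2C12 libraries, 3 in each of 5 groups named by the sample titles and labels, was sequenced after poly(A) selection with a stranded kit, per the labels' protocols. Per the submitters' processing notes, TopHat2, STAR and CASAVA were among the tools and mm9 was a build named, with neither role nor version. The authors deposited 1 table of log2 values, with 23352 genes. In each of the 15 libraries the smallest entry is exactly 1, so the scale was taken to be log2(FPKM + 2), from which FPKM was computed back. With that reading FPKM times transcript length summed to 0.914 to 0.945 of the expected total over genes holding 95.0% of the FPKM. The table holds no counts, so no count model was used. Low FPKM values fall on steps of whole reads, which gave the depth: 65.5% to 68.2% of them lay within 0.05 of a whole read, and 25.5% to 28.2% did at depths nearby. In M reads, the GFP control had 38.5 to 82.8, MLX-WT 53.0 to 77.9, MLX-DN 47.2 to 65.9, the non-targeting shRNA 39.6 to 56.1 and MLX shRNA 37.0 to 52.3.

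Genes with FPKM of at least 1 in at least 3 libraries were tested (11945) on the deposited log2 scale with limma 3.58.1 (R 4.3.3), fitting a mean for each group over 15 libraries, with a trend of the variance over expression, two-sided tests and Benjamini-Hochberg adjustment within each comparison at a threshold of 0.05. The fit was also run on simulated data with independent noise and far fewer changed genes than were called here. That run checks the code and does not bear on the p-values. Log2 differences understate changes of low genes. The genes named are the 6 members, Mlx, the 2 genes of highest mean level in each list and the 3 of most similar pattern to each member, leaving out predicted genes. The members and lists were chosen with earlier results of these data known. Myog, Ckm, Acta1, Myh11 and Myocd are named as markers. The alternatives changed the offset, the filter, the scaling, the variance model or the libraries fitted, or added a 2-fold limit or a replicate block. MLX shRNA was compared with MLX-WT and MLX-DN as an addition after seeing the data, so that neighbours in the order of levels had a test. Promoters are RefSeq's (GRCm38.p6, all 6 members matched), transcripts GENCODE's for GRCm38, and coding sequences were aligned with MAFFT 7.526. No coordinates on mm9 are given.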

Additional observations from a re-analysis of the deposited data

Results flagged for a closer look

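The effect of MLX-DN against the GFP control differed from the effect of MLX shRNA against the non-targeting shRNA in each of the 6 genes, by limma's test of the difference itself. On the log2 scale the difference of effects was 0.30 for Myh1, 0.46 for Myh2 (SE 0.044, adjusted p = 1.41e-07), -1.81 for Myh3, -2.68 for Myh4, -0.77 for Myh7 (SE 0.042, adjusted p = 2.16e-10) and -0.91 for Myh8 (SE 0.040, adjusted p = 1.68e-11). Myh3, Myh4 and Myh8 went in opposite directions: each was below the control with MLX-DN and above it with MLX shRNA, in all 3 libraries against all 3. Of all tested genes, 48.8% were called lower with MLX-DN and 83.6% did not overlap. With MLX shRNA 30.8% were called higher and 69.4% did not overlap. The share of tested genes that did both was not counted. The low values of Myh4 with MLX-DN, and of Myh4 and Myh8 in both shRNA groups, carry the limit given above for windows in common with Myh1. The mean ratio of Myh4 to Myh1 was 0.0827 with the non-targeting shRNA and 0.0586 with MLX shRNA. Whether reads of Myh1 make up the rise of Myh4 with MLX shRNA was not tested. For Myh8 the difference with MLX-DN was -0.07, and that call was lost when GFP control replicate 1, GFP control replicate 3 or MLX-DN replicate 2 was left out (adjusted p = 0.0551, 0.0885 and 0.110). With libraries centred on their medians its sign turned, to 0.02 (adjusted p = 0.513), so its opposite direction did not hold there. The effects rest on controls that differ in the same genes, and 74.8% of all tested genes differed by this test.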

How the results depend on the processing

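The counts of members called were within 1.5 times the reported count in all 162 alternatives apart from a 2-fold limit, and so were the counts of the lists in 144. With the 2-fold limit added (a log2 difference of 1 on the log2(FPKM + 2) scale, not a fold in FPKM), 0 members were left for MLX-WT against the GFP control, 1 for MLX shRNA against its control, 1 for MLX-DN against MLX-WT, 3 between the controls, 3 for MLX-DN against the non-targeting shRNA, 2 for MLX shRNA against the GFP control, and 2 in each of the differences of effects. With each library scaled to the same median the summed FPKM was 1438 (GFP control), 1638 (MLX-WT), 1306 (MLX-DN) and 715 (non-targeting shRNA). Signs turned only near 0: Myh3 between MLX-WT and the GFP control (0.059 centred on medians, 0.11 with quantile normalization, -0.016 to 0.0027 without a replicate), Myh8 between MLX-DN and the GFP control (0.020 centred), Mlx between the controls (-0.032 to 0.027 without a replicate), and Myh2 in the difference of the MLX-WT and MLX shRNA effects (-0.0041 and -0.0088 with offsets of 1 and 0.1, -0.0052 with quantile normalization, -0.036 to 0.037 without a replicate). Of 1134 alternative log2 differences of the members and Mlx, 1110 kept direction and side of the threshold, the 2-fold limit aside. A replicate block changed no call (Myh8 with MLX-DN, adjusted p = 0.0346), and the numbers do not pair the libraries: deviations of same-numbered libraries correlated at -0.0933 to 0.182. Depth gave at least about 3188 reads a value. The offset is inferred, and the part of reads in common between copies was not tested.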

Other observations

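Myl2, the slow and cardiac regulatory light chain, held 2.95 ± 0.0712 FPKM (SD, n = 3) in the GFP control, 75.5 ± 2.39 with MLX-WT, 182 ± 5.93 with MLX-DN, 25.7 ± 1.68 with the non-targeting shRNA and 26.7 ± 1.75 with MLX shRNA. It was lowest where the slow heavy chain Myh7 was highest. Mybpc1, the slow myosin binding protein C, held 28.7 ± 0.175 FPKM in the GFP control and at most 1.51 in each library with MLX-DN, the non-targeting shRNA or MLX shRNA. Myh13, the extraocular heavy chain, stayed between 0.676 ± 0.0170 FPKM with the non-targeting shRNA and 1.88 ± 0.0664 with MLX-WT, and Myh15 was listed at 0 in all 15 libraries. Myl2, Mybpc1, Myh13 and Myh15 were picked for mention after their values were seen.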
